A study of Oryza sativa with 7 samples.

Results

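Internal exon bins are the stretches of a rice locus's annotated exons that lie between its lowest-numbered and its highest-numbered bin. They were taken from loci that had 5 or more bins and 200 or more summed bin counts in each of 7 RNA-seq libraries. This gave 45540 internal bins of 4843 loci, out of 178317 bins of 37858 loci in all (25.5% of bins). A locus contributed between 3 and 64 internal bins, with a median of 8. At the edge of the rule, 18 loci had exactly 200 counts in their shallowest library and were kept, while 10 loci had 199 and were not. A further 439 kept loci had exactly 5 bins, and 387 loci with enough counts had 4 bins and were left out.

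The plants were Oryza sativa of the cultivar Ilmi, and the labels name no mutation or treatment. Leaf (2 libraries) and root (1 library) were taken at 14 days. Panicle here stands for unpollinated flowers from panicles of 0.5 to 1.5 cm (2 libraries). Seed was at 20 to 30 days after pollination, and the sample names give 21 (2 libraries). The series title puts the question as alternative splicing in these tissues. The labels do not say whether libraries of a tissue came from separate plants, so the spread between them may be technical. The files hold locus IDs without gene names, and no gene table used here named any of these loci, so no function is given and the tissue labels could not be checked against marker genes.

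As background, the exons of a plant gene are joined in more than 1 way. In plants a retained intron is the best known form, and skipped exons and alternative splice sites also occur. Transcripts of a locus can also start or end at different places, which adds or removes whole groups of neighbouring exons. An annotation cuts the exons of all transcripts of a locus into bins wherever transcript borders fall, so a bin that only some transcripts hold gains or loses reads as their mixture changes. The shares of a locus's bins add up to the whole, so when some bins take a larger share the others take a smaller one even if their own transcripts did not change.

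The measure was the share, the percentage of a locus's summed bin counts that fell in a bin. Bin lengths are not in the files, so a share does not give a bin's level relative to another bin. The limits and rankings used below act on the share as it is, in which a bin's unknown length also counts. Total bin counts ran from 11989260 in seed 2 to 49312943 in leaf 2. The median count of a kept locus ran from 543 in seed 2 to 2282 in leaf 2. At 200 counts, a share of 5% rests on 10 counts and one of 0.5% on 1 count. Internal bins took between 32.6% of the bin counts (seed 2) and 51.9% (root). The median share of an internal bin lay between 6.89% and 7.20% in all 7 libraries. Of the 45540 bins, 43589 had a count in every library and 1079 had none in any. A read that spans several bins is counted in each of them, so neighbouring bins share reads.

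The libraries fell apart in a way that the labels do not give. One of the 5 rows that name no gene counts read pairs of ambiguous position. It held 0.364% of all counts in leaf 1, 0.368% in root 1 and 0.443% in seed 1. It held 0.194% in leaf 2, 0.0266% in panicle 1, 0.207% in panicle 2 and 0.215% in seed 2. A limit of 0.3%, set after these values were seen, split the libraries into a higher and a lower set. Both leaf and both seed libraries were split between the sets, root was in the higher set alone, and panicle in the lower set alone. No pair of a root and a panicle library therefore lies within 1 set.

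In the median, shares differed more between libraries of different sets than between tissues in the same set, and the ranges overlapped. The median absolute difference in share between the leaf libraries, which are in different sets, was 1.25 percentage points. It was 1.18 points between the seed libraries, also in different sets, and 0.731 points between the panicle libraries, which are in the same set. Between tissues, the 8 library pairs of the same set differed by 0.591 to 1.24 points (median 0.865), and the 10 pairs of different sets by 1.12 to 1.40 points (median 1.31). Leaf 2 was thus nearer to panicle 2 (0.591 points) than to leaf 1. Seed 1 lay 1.24 points from leaf 1 and 1.11 from root 1, of its own set. It lay 1.12 from panicle 1, 1.16 from leaf 2, 1.18 from seed 2 and 1.21 from panicle 2, of the other set. In share, seed 1 was thus not clearly nearer to its own set, while leaf 1 and root 1 differed by 0.683 points. Differences of 10 points or more were found for 327 bins between the leaf libraries, 213 between the seed libraries and 42 between the panicle libraries. Between tissues they were found for 29 to 484 bins. Over all 18 library pairs of different tissues the median was 1.19 points, against 1.18 points over the 3 pairs of the same tissue.

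**Figure D1:**
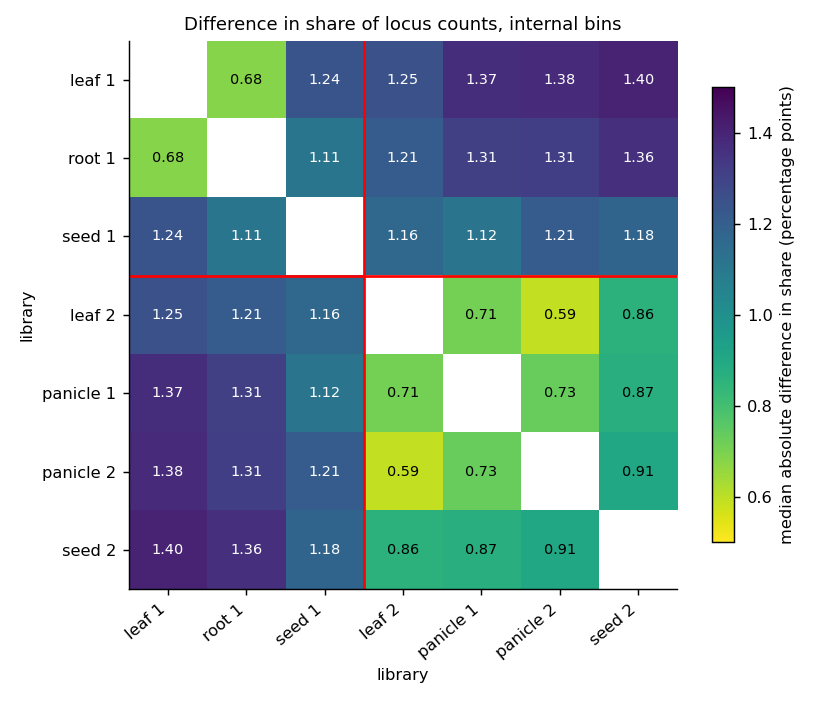
Median absolute difference in share (percentage points, colour and number) over 45540 internal bins for every pair of libraries; red lines part the higher set (leaf 1, root 1, seed 1) from the lower set. Leaf 1 and leaf 2 differed by 1.25 points, more than leaf 2 and panicle 2 (0.59) or leaf 1 and root 1 (0.68).

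Most internal bins were used in every tissue, and few were near zero in any. A bin was counted as near zero in a tissue at 0.5% or less of the locus's counts in every library of it, and used at 5% or more in every library. By these limits 24895 bins (54.7%) were used in all 4 tissues. Another 1715 bins (3.77%), in 697 loci, were near zero in all 4. A fixed share is harder to reach in a locus of many bins. The median number of bins of the locus was 11 for bins used in all 4 tissues, 13 for all internal bins and 16 for bins near zero in all 4. Of these 1715 bins, 65.7% lay beside another such bin, and 16.7% lay beside the first or last bin of the locus, against 21.3% of all internal bins. A further 805 bins (1.77%) were near zero in 1 to 3 tissues. In between lay 9084 bins (19.9%) that were used in 1 to 3 tissues and near zero in none, and 9041 (19.9%) that were neither used nor near zero in any tissue. Root had the most bins near zero in that tissue alone, 210, against 102 in panicle, 37 in leaf and 34 in seed. Root has 1 library, so its bins had to meet the limit once and those of the other tissues in both libraries.

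Only 10 bins, in 9 loci, were near zero in 1 tissue and used in another. That is 0.0220% of internal bins, against 0.038% of all bins of the same loci. These bins were chosen by their values, so they carry no test. Panicle was the low tissue for 5 of the 10 bins (the plot of shares by library), root for 3, leaf for 1 and seed for 1. The count moved with single libraries: it was 16 without leaf 2, 6 without root 1, 26 without panicle 1, 23 without seed 1 and 19 without seed 2. With loci of 500 or more counts in every library, 1 bin was left.

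**Figure D2:**
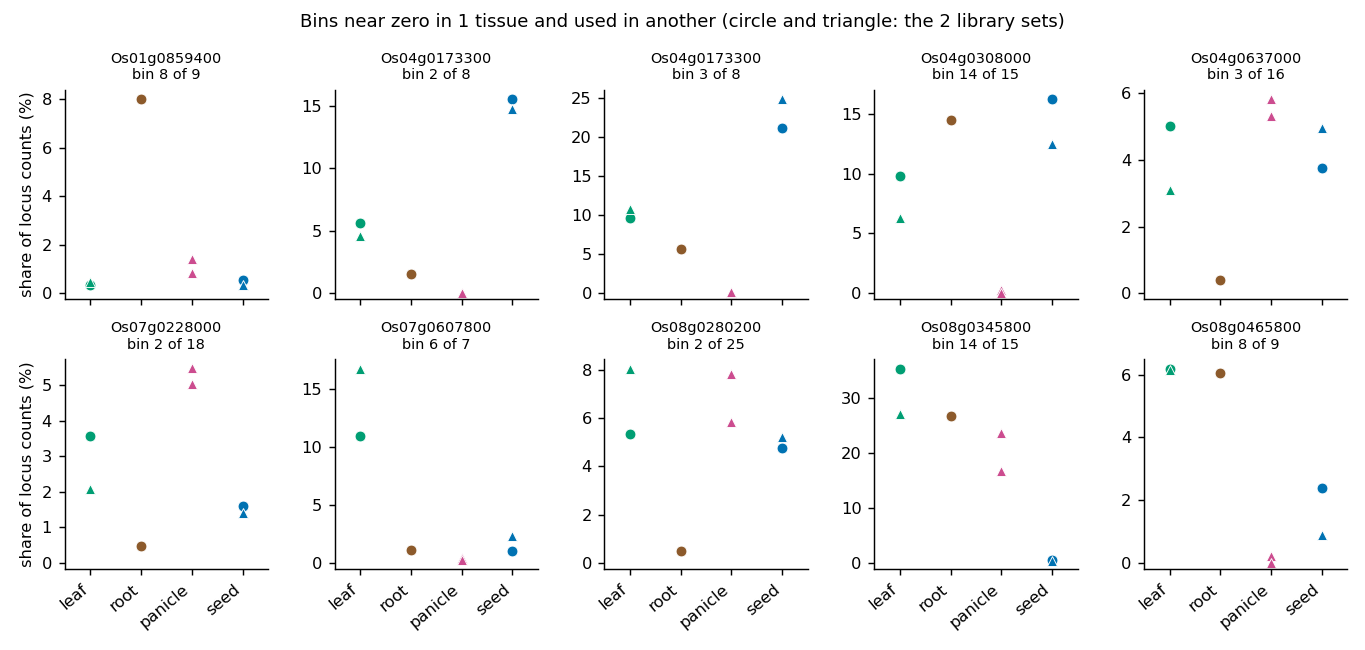
Share of locus counts (%) in each library for the 10 internal bins near zero in 1 tissue and used in another; circles are libraries of the higher set and triangles of the lower set, and root has 1 library. Bin 14 of Os08g0345800 was at 16.8% or more in leaf, root and panicle and under 0.5% in both seed libraries.

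Bin 14 of the 15 bins of Os08g0345800 was low in seed. It held 35.3% and 27.2% of the locus's counts in leaf, 26.7% in root (95% Wilson interval 22.0% to 32.1%, counting error only), 16.8% and 23.6% in the panicle libraries, and 0.464% and 0.382% in those of seed. Both seed libraries lay far below the other 5. The locus had 23697 and 8107 counts in seed and between 288 and 5522 elsewhere, so the low shares in seed stand for 110 and 31 counts. The last bin, 15, went the other way: 35.5% and 33.4% for seed, 9.72% for root, 0.575% and 0.344% for leaf, and 0.0971% and 0% for panicle. Bin 13 stayed between 43.3% and 48.7% in all libraries. Seed counts of the end of this locus thus fell in bin 15 where those of leaf and panicle fell in bin 14.

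In Os04g0173300, bins 2 and 3 of 8 were nearly empty in panicle. Bin 3 was at 9.64% and 10.9% for leaf, 5.64% for root (Wilson interval 3.75% to 8.39%), 0% and 0.161% for panicle, and 21.2% and 24.9% for seed. Bin 2 was at 5.61% and 4.59% for leaf, 1.54% for root, no count in either panicle library and 15.5% and 14.8% in seed. Bin 1 was also almost empty in panicle, at 0% and 0.322%, against 13.7% and 9.09% in leaf. Bin 4 went the other way, with 68.6% and 67.5% for panicle and 28.3% and 35.1% for seed. The panicle libraries had 1248 and 621 counts over the locus, and the other libraries between 390 and 1023.

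In Os04g0308000 it was the upper end of the locus that was nearly empty in panicle. Bin 14 of 15 was at 9.79% and 6.31% for leaf, 14.5% for root (Wilson interval 11.1% to 18.8%), 0.275% and 0% for panicle, and 16.2% and 12.5% for seed. Bin 13 was also lowest in panicle, at 0.549% and 0.296%, and so was bin 15, at 0.275% and 0%. The panicle libraries did not overlap with any other library in these 3 bins. Bin 5 was at 37.4% and 36.1% in panicle and at 26.0% or less elsewhere.

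In Os07g0607800 leaf stood apart. Bin 6 of 7 was at 10.9% and 16.7% for leaf, 1.09% for root (Wilson interval 0.674% to 1.77%), 0.419% and 0.261% for panicle, and 0.995% and 2.30% for seed. Bin 5 was at 29.4% and 23.7% in leaf and at 4.07% or less in the other 5 libraries. Bin 7, the last, was at 22.0% and 21.8% in leaf and at 2.71% or less elsewhere. Bins 1 to 4 of this locus all had their lowest shares in leaf.

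Bin 2 of the 25 bins of Os08g0280200 was low in root. It was at 5.35% and 8.05% for leaf, 0.491% for root (Wilson interval 0.135% to 1.77%), 7.85% and 5.82% for panicle, and 4.74% and 5.21% for seed. The root value rests on 2 of 407 counts, and no second root library measured its spread. Bins 1 to 6 were all at 1.47% or less in root.

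**Figure D3:**
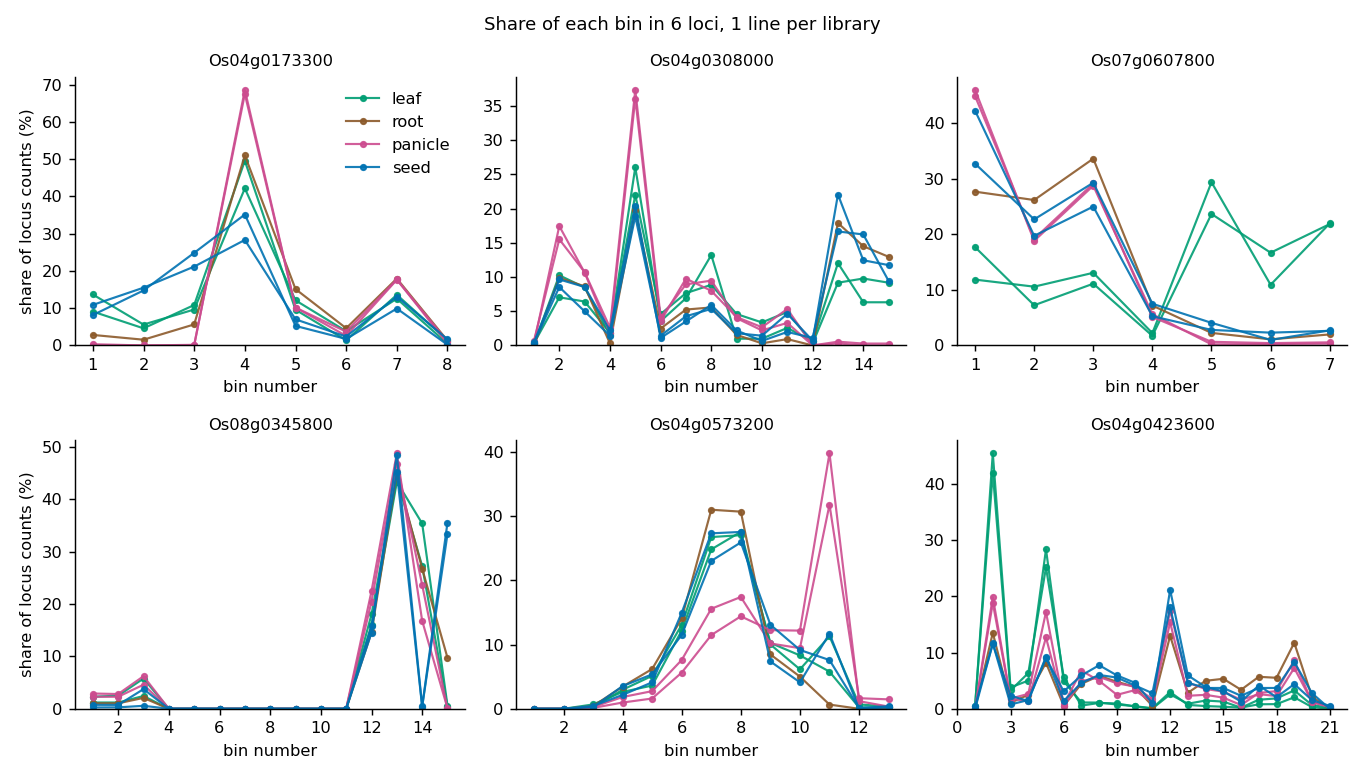
Share of locus counts (%) by bin number in 6 loci, with 1 line for each of the 7 libraries, coloured by tissue. Panicle was at 0.549% or less over bins 1 to 3 of Os04g0173300 and bins 13 to 15 of Os04g0308000, and leaf was highest over bins 5 to 7 of Os07g0607800.

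Choosing such bins in 1 library of a tissue and looking at the other library shows how far single libraries carry. With leaf, panicle and seed replicate 1 alone, 26 bin and tissue combinations met both limits. In replicate 2, 9 of these 26 met both limits again, and 20 were lower in the same tissue. Chosen on replicate 2, 49 combinations met the limits, and 25 of these were lower in the same tissue in replicate 1. The 9 that also met both limits in replicate 1 are the same 9 by construction, not a second check.

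Differences in usage between tissues were then tested with edgeR, which sets the change of a bin against the change of the whole locus. The fit covered 117658 bins of 18512 loci. Of the internal bins 43689 were tested, and 1851 did not pass the filter on low counts. A bin was called when both its own and its locus's Benjamini-Hochberg adjusted p were under 0.05. Over the 6 pairs of tissues, 48 internal bins of 30 loci were called at least once, which is 0.110% of those tested, against 0.0952% of all bins tested. Root's tests assume that root varies as much as the other tissues.

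The number of calls rested on the test and on single libraries. Between leaf and panicle 29 internal bins were called (0.0664% of those tested, background 0.0493%), between leaf and seed 23 (0.0526%, background 0.0365%) and between panicle and seed 14 (0.0320%, background 0.028%). Between leaf and root 5 were called (0.0114%, background 0.0161%), between root and panicle 14 (0.0320%, background 0.0272%) and between root and seed 5 (0.0114%, background 0.00595%). These shares were near the background, except for root and seed, where they differ most and rest on 5 calls. A DESeq2 model of the same counts called 86 between leaf and panicle (background 0.19%), 96 between leaf and seed (0.207%), 50 between panicle and seed (0.127%), 28 between leaf and root (0.0892%), 41 between root and panicle (0.149%) and 37 between root and seed (0.0935%). With the library set as a term, edgeR called 18 (0.0348%), 36 (0.0535%), 16 (0.0306%), 9 (0.0195%), 2 (0.0051%) and 6 (0.0102%) in the same order of pairs, background in brackets. DESeq2 with this term called 76 (0.164%), 129 (0.264%), 49 (0.104%), 28 (0.079%), 22 (0.0391%) and 43 (0.0977%). Of the 48 bins called by edgeR, 42 were also called by DESeq2 in some pair, and 30 bins of 18 loci were called in some pair by both tools, each with and without the library set as a term.

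**Figure D4:**
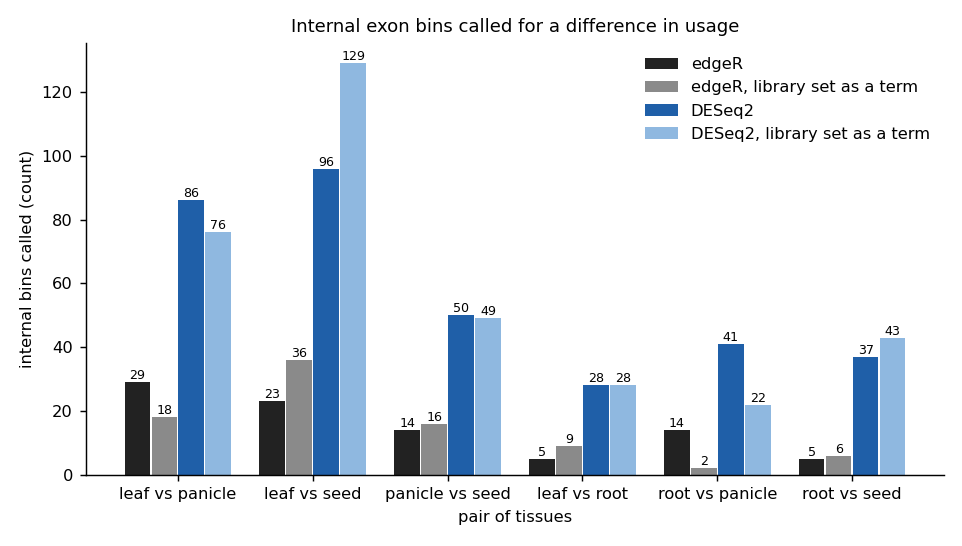
Number of internal bins called for a difference in usage in each pair of tissues, by edgeR and DESeq2, each without and with the library set as a term; bars start at 0. DESeq2 called more bins than edgeR in every pair, and the term for the library set lowered the edgeR count for root against panicle from 14 to 2.

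Leaf against panicle gave 24 bins of larger share in leaf (background 0.0323%) and 5 of larger share in panicle (background 0.017%). DESeq2 called 41 towards leaf (background 0.0807%) and 45 towards panicle (background 0.11%), and with the library set as a term 30 (0.0569%) and 46 (0.107%). Voom with diffSplice called 38 towards leaf (0.0544%) and 9 towards panicle (0.0374%). Without panicle 1, edgeR called 11 (0.0138%) and 11 (0.012%). The excess towards leaf was therefore not kept under every test or without every library. Bin 5 of Os07g0607800, with the shares given above, had a log2 change in usage of 5.85 ± 0.46 (SE) and an edgeR adjusted p of 1.08e-07. It was called under all 17 alternatives. Bin 2 of the 6 bins of Os02g0522300 was at 24.5% and 16.8% for leaf, 5.31% for root, 2.85% and 0.590% for panicle, and 18.5% and 15.3% for seed. Both leaf libraries lay above both panicle libraries, and seed lay near leaf. Its log2 change from panicle to leaf was 3.47 ± 0.60 (SE, edgeR adjusted p = 0.0179).

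In the other direction, bin 11 of the 13 bins of Os04g0573200 was at 39.8% and 31.8% for panicle, 5.78% and 11.3% for leaf, 0.656% for root (Wilson interval 0.367% to 1.17%), and 7.59% and 11.7% in seed. Panicle was highest and root lowest, and leaf and seed overlapped. The log2 change of leaf against panicle was -2.04 ± 0.37 (SE, edgeR adjusted p = 0.0179). Bin 12 of the 21 bins of Os04g0423600 was at 2.56% and 2.99% for leaf, 13.0% for root, 17.5% and 15.4% for panicle, and 21.2% and 18.1% for seed. Leaf was low over bins 7 to 20 of this locus and high in bin 2, at 42.0% and 45.5% against 19.9% or less elsewhere. The log2 change of bin 12 between leaf and panicle was -2.56 ± 0.36 (SE, edgeR adjusted p = 0.000899).

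In edgeR the calls of these last 3 bins were lost when any 1 library of the pair was left out, which leaves 1 library in a tissue. DESeq2 was not rerun in this way. Leaving out leaf 1, leaf 2, panicle 1 or panicle 2 gave an edgeR adjusted p of 0.962, 0.176, 0.141 and 1.0 for Os02g0522300, 1.0, 0.135, 0.971 and 0.362 for Os04g0573200, and 0.565, 0.169, 0.103 and 0.0782 for Os04g0423600. The direction was the same each time, as is likely for bins chosen without overlap between these libraries. With the library set as a term, the edgeR adjusted p was 0.131 for Os02g0522300, 0.100 for Os04g0573200 and 0.000828 for Os04g0423600. DESeq2 with this term called all 3 bins, at an adjusted p of 0.00167, 1.15e-06 and 2.10e-13 in the same order. The 29 calls fell to 8 without leaf 1, 7 without leaf 2 and 5 without panicle 2, and were 45 without seed 1. Without panicle 1 there were 22 calls, of which 5 were among the 29.

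Leaf against seed gave 19 bins used more in leaf (background 0.0238%) and 4 used more in seed (background 0.0127%). With the library set as a term edgeR made 36 calls (background 0.0535%), 19 towards leaf (0.0255%) and 17 towards seed (0.028%). DESeq2 called 47 towards leaf (0.0901%) and 49 towards seed (0.116%), and voom with diffSplice 31 (0.0382%) and 9 (0.0255%). Bin 14 of Os08g0345800 had a log2 change from seed to leaf of 6.13 ± 0.70 (SE, edgeR adjusted p = 6.54e-05) and was called under all 17 alternatives. Bin 3 of the 12 bins of Os04g0619200 was at 29.7% and 34.6% for leaf, 9.54% for root, 8.39% and 6.58% for panicle, and 4.47% and 2.27% for seed. Leaf was apart from all other libraries, and its log2 change against seed was 3.23 ± 0.40 (SE, edgeR adjusted p = 0.000791). The change was 3.34, 3.12 and 2.82 without leaf 1, leaf 2 and seed 2, and the locus then had an adjusted p of 0.0772, 0.323 and 0.0815 and was not called.

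Towards seed, bin 12 of Os04g0423600 had a log2 change of leaf against seed of -2.81 ± 0.37 (SE, edgeR adjusted p = 0.000293). Without leaf 1 and leaf 2 in turn the adjusted p was 0.310 and 0.132. Bin 6 of the 16 bins of Os10g0439600 was at 3.84% and 7.22% for seed, 0.839% and 0.911% for leaf, 0.549% for root, and 3.31% and 1.03% for panicle. Its neighbours, bins 5 and 7, differed by less than 2-fold between the tissues where bin 6 was highest and lowest, and bin 5 stayed between 3.77% and 7.20% in all libraries. Seed was above leaf in both libraries, while the panicle libraries were far apart. The log2 change of bin 6 was -2.64 ± 0.50 (SE, edgeR adjusted p = 0.00884). It was called under 7 of 17 alternatives. Its locus had an adjusted p of 1.0 with either leaf library left out, 0.113 and 0.0734 with panicle 1 or panicle 2 left out, and 0.321 and 1.0 with seed 1 or seed 2 left out. The 23 calls were 5 without leaf 1 and 7 without leaf 2. Of the 21 calls without seed 1, 8 were among the 23, and of the 19 without seed 2, 11 were.

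Leaf and seed are the tissues with a library in each set, so their difference could be read in separate pairs of libraries. Between leaf 1 and seed 1, 275 bins differed by 10 points or more, and between leaf 2 and seed 2, 73 bins. Of these, 31 bins did so in both, which is 11.3% of the first list and 42.5% of the second. In 30 of the 31 the direction was the same, 14 higher in leaf and 16 higher in seed, and in 1 it was opposite. At 5 points or more, 301 bins were shared, of which 256 had the same direction. At 2 points or more, 4335 were shared, and 2885 had the same direction and 1450 the opposite one.

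**Figure D5:**
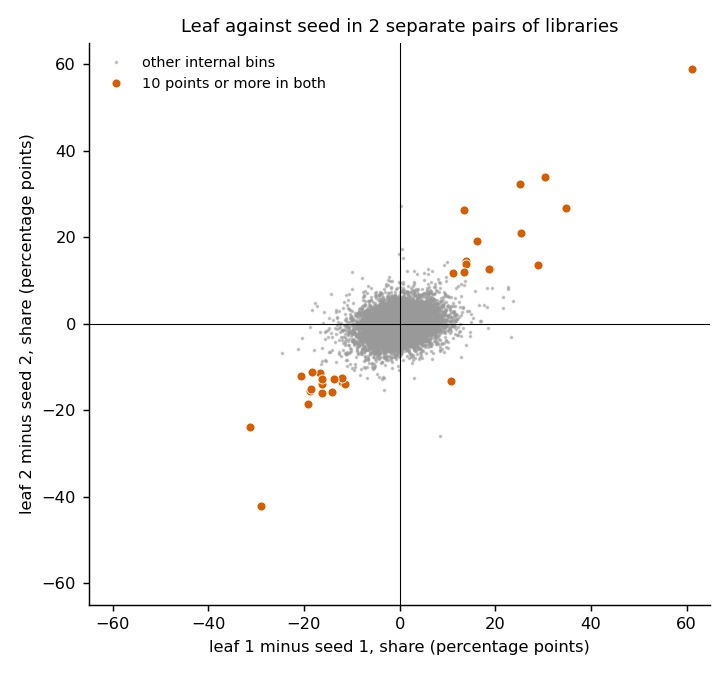
Difference in share between leaf and seed (percentage points) for each internal bin, in the libraries of the higher set (leaf 1, seed 1, x axis) and of the lower set (leaf 2, seed 2, y axis); orange points differed by 10 points or more in both. Of the 31 orange points, 30 lie in the quadrants where both differences have the same sign.

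Panicle against seed gave 4 bins of larger share in panicle (background 0.0085%) and 10 of larger share in seed (background 0.0195%). DESeq2 called 22 towards panicle (0.0629%) and 28 towards seed (0.0637%). Bin 3 of Os04g0173300 had a log2 change of panicle against seed of -8.37 ± 0.76 (SE, edgeR adjusted p = 4.73e-07). With 0 and 1 counts in panicle this value and its SE depend on the prior count of the fit. DESeq2 gave -9.07 ± 1.36 (SE) for the same bin. Bin 13 of Os04g0308000 had a log2 change of -5.29 ± 0.62 (SE, edgeR adjusted p = 1.47e-06), from 4 and 1 counts in panicle. Both bins were called under all 17 alternatives. Towards panicle, bin 14 of Os08g0345800 had a log2 change of 5.55 ± 0.69 (SE, edgeR adjusted p = 0.000134), and its locus was not called without panicle 2 (bin adjusted p = 0.0559).

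Bin 2 of the 17 bins of Os01g0633100 was at 3.11% and 3.28% for panicle, 2.54% and 3.15% for leaf, 1.49% for root, and 0.0147% and 0.0337% for seed. Bin 1 showed the same pattern, at 3.89% or more outside seed and 0.0700% or less in seed, while bins 3 to 17 were each at 2.49% or more in every library. The locus had 115907 and 38583 counts in seed and 201 to 1671 elsewhere. Bin 2 itself had 17 and 13 counts in the seed libraries and 52 and 18 in the panicle libraries. The log2 change was 7.18 ± 0.93 (SE, edgeR adjusted p = 3.65e-06), and without seed 1 the adjusted p was 0.124. The 14 calls of the pair were 24 without panicle 1, of which 8 were among the 14, and 7 without panicle 2. Of the 21 without seed 1, 9 were among the 14.

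Leaf against root gave 5 bins, all of larger share in leaf (background 0.0127%) and none in root (background 0.0034%). DESeq2 called 13 towards leaf (0.0459%) and 15 towards root (0.0433%). At an unadjusted p under 0.05, edgeR had 195 of the 43689 internal bins tested (0.446%) in either direction, against 875 of all 117658 bins. Bin 5 of Os07g0607800, at 29.4% and 23.7% for leaf and 2.26% for root (Wilson interval 1.61% to 3.15%), had a log2 change of 3.54 ± 0.54 (SE, edgeR adjusted p = 0.00639). Bin 11 of Os04g0573200 had a log2 change of 3.71 ± 0.59 (SE, edgeR adjusted p = 0.00452). In edgeR no internal bin was called without leaf 1 or without leaf 2, which leaves 1 library in each tissue, and DESeq2 was not run. The count was 3 without panicle 1, 2 without panicle 2, 16 without seed 1 and 14 without seed 2. For Os07g0607800 the adjusted p was 0.141, 0.144, 0.0552 and 0.0551 without leaf 1, leaf 2, panicle 1 and panicle 2. For Os04g0573200 the locus had an adjusted p of 0.0767, 0.984 and 0.0765 without leaf 1, leaf 2 and panicle 2.

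Root against panicle gave 12 bins of larger share in root (background 0.0204%) and 2 of larger share in panicle (background 0.0068%). DESeq2 called 20 towards root (0.0799%) and 21 towards panicle (0.0688%). With the library set as a term edgeR kept 2 calls (background 0.0051%), of which 1 was higher in root (0.0034%) and 1 in panicle (0.0017%). DESeq2 with this term called 22 (background 0.0391%), of which 5 were among the 14 edgeR calls. Bin 13 of Os04g0308000, at 17.9% in root (Wilson interval 14.1% to 22.4%) and 0.549% and 0.296% in panicle, had a log2 change of 5.15 ± 0.67 (SE, edgeR adjusted p = 3.07e-05). Bin 11 of Os04g0573200 had a log2 change of -5.75 ± 0.63 (SE, edgeR adjusted p = 1.23e-05). These were the 2 bins still called by edgeR with the library set as a term, and both were called under all 16 alternatives.

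Bin 2 of the 9 bins of Os01g0859200 was at 21.8% in root (Wilson interval 16.6% to 28.0%), 20.7% and 9.53% for leaf, 1.34% and 2.75% for panicle, and 1.37% and 1.31% for seed. The high leaf value and the root value are of libraries of the higher set. The log2 change of root against panicle was 3.48 ± 0.61 (SE, edgeR adjusted p = 0.0258). With the library set as a term it was 2.48 with an adjusted p of 1.0, and leaving out leaf 1, leaf 2, panicle 1 or panicle 2 gave an adjusted p of 0.104, 0.0646, 1.0 and 0.650. Bin 3 of the 18 bins of Os04g0527400 was at 0.192% in root (Wilson interval 0.0652% to 0.562%), 5.89% and 4.24% for panicle, 4.30% and 3.59% for leaf, and 3.18% and 5.57% for seed. Bins 1 and 2 of this locus were also at 0.192% or less in root and at 1.71% or more in every other library. The log2 change of bin 3 was -4.67 ± 0.65 (SE, edgeR adjusted p = 0.00520). Its locus was not called with the library set as a term (adjusted p = 0.0819), nor without leaf 1, panicle 1 and panicle 2 (0.0564, 0.488 and 0.143). The 14 calls were 8 without leaf 1 and 4 without panicle 2. Of the 13 without panicle 1, 3 were among the 14.

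Root against seed gave 4 bins of larger share in root (background 0.00425%) and 1 of larger share in seed (background 0.0017%). DESeq2 called 20 towards root (0.0467%) and 17 towards seed (0.0467%). Bin 14 of Os08g0345800 had a log2 change of 5.94 ± 0.75 (SE, edgeR adjusted p = 0.000736), bin 2 of Os01g0859200 one of 4.06 ± 0.65 (SE, edgeR adjusted p = 0.0227), and bin 11 of Os04g0573200 one of -3.87 ± 0.60 (SE, edgeR adjusted p = 0.00447). The bin of Os01g0859200 was not called when any 1 of the other 6 libraries was left out, with adjusted p between 0.0666 and 0.155. The locus of Os08g0345800 missed the threshold without panicle 2 (adjusted p = 0.0519), and that of Os04g0573200 without leaf 1 (0.0545) and panicle 2 (0.0782). With only the root and seed libraries in the fit, none of the 3 was called, with an edgeR adjusted p of the bin of 0.732 for Os08g0345800 and 1.0 for Os04g0573200 and Os01g0859200. The 5 calls were 3 without leaf 1, 3 without panicle 2 and 13 without seed 1.

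By mean share, 21 of the 48 called bins were highest in leaf, 10 in root, 9 in seed and 8 in panicle. They lie in 12, 9, 6 and 7 loci, and 7 of the 21 are in 1 locus. Of the 44461 internal bins with a count, 13.6% were highest in leaf, 32.9% in root, 28.8% in seed and 24.7% in panicle. The lowest tissue of the called bins was panicle for 20 bins of 13 loci, root for 12 bins of 7, seed for 11 bins of 8 and leaf for 5 bins of 5. Over all internal bins with a count, it was panicle for 32.0%, root for 33.6%, seed for 18.7% and leaf for 15.7%. The single root library is not averaged, so its mean share is free to lie further out. These counts are of the edgeR calls alone, whose split between leaf and the other tissues was not kept under every alternative. The difference in mean share of the called bins had a median of 4.15 points between leaf and panicle, 3.31 between leaf and seed and 8.97 between panicle and seed.

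Of the 48 called bins, 18 (37.5%) lay beside the first or last bin, against 21.5% of the internal bins tested, and 30 did not. The first and last bins of the same loci were called in 0.342% of cases (30 of 8775). A called neighbour was found for 22 of the 48 and none for 26. Of the 22, 7 are bins 2 to 8 of the 16 bins of Os07g0205000, singled out after its values were seen. Neighbouring bins share reads, so a run is not a set of separate measurements. A classification added after seeing the profiles asked how far a change went, between the bin's highest and lowest tissue. For 32 called bins of 18 loci, at least 1 further bin and every bin on to 1 end of the locus changed 2-fold or more in the same direction, leaving out bins under 1% in both tissues. For 6 bins, both neighbours differed by less than 2-fold, as bin 6 of Os10g0439600 did. The other 10 were neither. Of the 10 bins near zero in 1 tissue and used in another, 8 changed together with every bin to 1 end. This was not counted over all internal bins, so the 32 and the 8 have no background beside them. The highest and lowest tissue were picked from the same values. A bin beside an end needs only that end bin to change likewise. The files hold no junction reads and no transcript direction, so a skipped exon, a retained segment and another start or end of the transcript cannot be told apart.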

How the data were processed

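The deposited values are whole-number read counts per exon bin, with no normalization by the authors, per the labels and from the values. The submitters' processing notes name bcl2fastq 1.8.4, TopHat2 2.0.4, Bowtie2, SAMtools 1.2, Cufflinks, HTSeq and the build IRGSP-1.0, without their roles. Libraries used the TruSeq RNA kit, per the labels' protocols. The strand setting and read filters were not given in the sources used here, so reads of overlapping or antisense loci cannot be told apart, and near-identical copies may share reads. The 5 rows naming no gene (12.2% to 15.8% of all counts) stayed out of totals and tests. Of 37858 locus IDs, 1 matched the RefSeq table of assembly ASM3414082v1, and 0 among the loci used.

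Usage was tested by edgeR 4.0.16 under R 4.3.3: filterByExpr (minimum count 10, 1 library enough), TMM, estimateDisp, glmQLFit and diffSpliceDGE, in 1 model of all libraries (4 tissue means, residual degrees of freedom 3). Its coefficients were turned from natural log to log2, and P values were adjusted over all 117658 bins. A log2 change in usage is the bin's log2 fold change minus that of its locus. The SE printed with an edgeR change was worked back from the test. It is the absolute change divided by the square root of the F statistic. Alternatives were DESeq2 1.42.0 (bin against the rest of its locus), voom with diffSplice from limma 3.58.1, RLE scaling, other filters, the replicate number as a block, only the libraries compared, loci of 500 or more counts, end bins left out, and each library left out. A term for the library set was added, in both tools, after seeing the data.

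On simulated counts all tests gave few false calls and the right sign for nearly all of the largest changes. DiffSpliceDGE called fewer of the changed bins than DESeq2. The simulation gave all bins the same spread, changed bins in panicle only, and was read for leaf against panicle. It held no difference between library sets, so its few false calls do not carry over to these libraries. The criterion the self-test must meet was loosened for diffSpliceDGE after it missed the first one. The edgeR test was kept as the main test, and a low number of calls is therefore no sign that few bins changed. In the data, 0.446% to 1.84% of internal bins had an unadjusted edgeR p under 0.05 in a pair, below the 5% that a calibrated test gives with no change.

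Named bins are, for each pair and direction, the 2 called bins with the largest difference in mean share and no overlap between libraries, 1 per locus at most, and for each tissue the 2 bins with the highest lowest-library share among those near zero in another tissue and used in it, or near zero in it and used in the other 3. Neighbouring bins are given with them. The members, limits and lists were chosen with earlier results of these data known. Wilson intervals are at 95%. They take each count as a separate read, though a read that spans several bins is counted in each, so they are approximate. Replicate libraries were compared first: 25.4% to 28.1% of bins had equal counts in both libraries of a tissue, and none was a copy. The size of the equal counts was not looked at. Replicate numbers showed little pairing of the panicle libraries with those of leaf or seed. In leaf and seed the number went with the library set.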

Additional observations from a re-analysis of the deposited data

How the results depend on the processing

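Of 348 recomputed values for 21 named results, 276 kept direction and call and 72 kept the direction only. None reversed, but the named bins were chosen for large differences without overlap between these same libraries. A reversal was therefore unlikely from the start. Under every alternative, 6 results were called. The counts of calls moved more, and the cause was not tested. For leaf against panicle (29), voom gave 47, DESeq2 86, DESeq2 with the library set 76, edgeR with the library set 18, only the libraries of both tissues 46 and loci of 500 or more counts 15. For leaf against seed (23), voom gave 40, DESeq2 96, DESeq2 with the library set 129 and edgeR with the library set 36. For panicle against seed (14), DESeq2 gave 50, 49 with the library set, and loci of 500 or more counts 5. For leaf against root (5), voom gave 19, DESeq2 28 with or without the library set, edgeR with the library set 9, only these tissues 17 and loci of 500 or more counts 3. For root against panicle (14), voom gave 29, DESeq2 41, 22 with the library set, edgeR with the library set 2, only these tissues 72 and loci of 500 or more counts 3. For root against seed (5), DESeq2 gave 37, 43 with the library set, end bins left out 9, only these tissues 1 and loci of 500 or more counts 2. A higher locus minimum keeps fewer bins by construction. The calls over all bins moved too. In the same order of pairs, voom called 108, 75, 44, 61, 97 and 29 of all 117658 bins tested. With only the libraries of both tissues, 91 of 104823 bins were called for leaf against panicle and 39 of 107186 for leaf against root. For root against panicle 208 of 109976 were called, and for root against seed 2 of 106983. The counts with single libraries left out are given without their background. Leaving out single libraries gave 5 to 45, 5 to 27, 7 to 24, 0 to 16, 4 to 19 and 3 to 13 calls in the same order of pairs. RLE scaling and the low-count filters stayed within 1.5 times in every pair.

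Deviations of same-numbered libraries correlated at 0.0995 (leaf and panicle) and 0.0911 (panicle and seed), but at 0.409 for leaf and seed. Same-numbered leaf and seed libraries thus deviated together in part, and they lie in the same library set. With the replicate block, edgeR called 44 bins for leaf against panicle (23 towards leaf and 21 towards panicle), 32 for leaf against seed, 20 for panicle against seed, 10 for leaf against root, 14 for root against panicle and 6 for root against seed. Over all 117658 bins tested, the block gave 111 calls for leaf against panicle (47 towards leaf and 64 towards panicle). For the other pairs it gave 59, 51, 22, 34 and 13 in the same order. Of the 21 named results, 18 were called with the block.

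The 10 bins near zero in 1 tissue and used in another became 2 at a near-zero limit of 0.2%, 28 at 1%, 91 at a used limit of 2%, 5 at 10%, 1 with loci of 500 or more counts and 9 with shares of internal counts, and ran from 6 to 26 with single libraries left out. The median difference in share ran from 0.954 to 1.32 points between replicates and from 1.003 to 1.30 between tissues. Depth limits the low end: in seed 2, the shallowest library, the median internal bin had 46 counts.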
